A study of Mus musculus with 10 samples.

Results

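The genes described here are 37 genes of the heat shock response and the unfolded protein response, chosen by symbol from a list of cytosolic, mitochondrial and endoplasmic reticulum (ER) chaperones and of the sensors, transcription factors and targets of the unfolded protein response. Each symbol matched exactly 1 gene of the expression table. By role they comprise 13 cytosolic heat shock genes, 3 mitochondrial chaperones, 12 genes of ER protein folding and degradation, and 9 sensors, factors or targets of the unfolded protein response. Chaperones bind unfolded proteins and help them reach or regain their native fold. In the cytosol the transcription factor HSF1 induces chaperone genes when unfolded proteins accumulate, most steeply the inducible HSP70 genes and small heat shock proteins. In the ER the sensors IRE1, PERK and ATF6 respond to unfolded proteins through XBP1, ATF4 and the cleaved form of ATF6, which raise ER chaperones, degradation factors and, through ATF4, genes of amino acid synthesis. ATF4 is also translated when amino acids are scarce, so its targets are shared with a wider integrated stress response.

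The data are RNA-seq libraries of OP9, a stromal cell line labelled as from foetal calvaria of mice of the strain (C57BL/6xC3H)F2-op/op, which is used to support blood progenitors in culture. The paper gives newborn, not foetal, op/op mice as the source of these calvaria. There were 10 libraries, 6 from reaggregates and 4 from flat cultures grown submersed on plastic. Reaggregates were pelleted cells kept for 48 h on nitrocellulose filters where liquid meets gas, 3 of them with IL-3 and 3 without it. The IL-3 dose given in the methods, 200 µg/µl, is printed as found and may be an error of unit. Flat cultures 2 and 4 carried the label of the de Bruijn lab, while flat cultures 1 and 3 and the reaggregates named no lab. The methods trace the flat cultures to the Medvinsky or the de Bruijn group. According to the methods, cells were dispersed with trypsin before reaggregation, and reaggregates were dissociated with collagenase and dispase before RNA was extracted. The effects of reaggregation, of culture at the interface and of these enzyme steps therefore cannot be told apart in these libraries. The line is a single culture-adapted line, and its labels give no passage number and do not say whether replicates were cultures started separately, so p-values measure the spread between these libraries, which may be partly technical. The methods describe the variance between sources of OP9 as equivalent to that between passage numbers.

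Expression was deposited in RPM, a share of the reads on genes that sums to the same total in every library and is not divided by gene length, so levels are compared here between libraries and not between genes. If the most frequent nonzero value is a single read, 1 read was worth 0.106 to 0.136 RPM in these libraries, and 3 reads were worth 0.318 to 0.408 RPM. Below this floor a value is little more than counting error, and the floor takes no other error into account. Consecutive reaggregates (1 and 2, 3 and 4, 5 and 6, each 1 without and 1 with IL-3) were the most alike, with Pearson's r across genes from 0.994 to 0.995 within these pairs. The other pairs of reaggregates had r from 0.961 to 0.980. Genes are not independent replicates, and whether consecutive reaggregates share a source was not labelled, so calls of the 37 genes, and counts of calls in the lists, are also given with each of these pairs averaged. Of 12 stromal markers, *Thy1* was below 0.5 RPM in every library, while the most abundant on average, *Col1a2*, ranged from 1190 to 6340 RPM in flat cultures and from 7610 to 11300 RPM in reaggregates. The blood markers *Ptprc*, *Emr1* and *Cd3e* were at 0 in all 10 libraries, and the 6 blood markers used summed to between 2.39 and 9.38 RPM, mostly from *Cd68*. The 6 endothelial markers summed to at most 1.23 RPM and the 5 epithelial markers to at most 0.807 RPM in any library. The 6 adipocyte markers summed to 1385 and 1457 RPM in flat cultures 2 and 4, to 370 and 528 RPM in flat cultures 1 and 3, and to between 255 and 691 RPM in reaggregates. Their most abundant gene on average was *Lpl*, at 164 to 558 RPM over all libraries, and the part of such a difference in the results below was not tested. In bulk libraries a lower share of cells that express a gene and less RNA of it per cell cannot be told apart.

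All 37 genes passed the filter of more than 0.5 RPM in at least 1 library and were tested among 16933 genes. Calls required both a 2-fold difference and an adjusted p of at most 0.05 in limma. Between reaggregates and flat cultures 5 of the 37 genes were called higher in reaggregates (*Hspa1a*, *Hspa1b*, *Hspb1*, *Dnaja1* and *Ddit3*), beside 7.32% of all genes tested. Another 5 were called lower (*Asns*, *Chac1*, *Trib3*, *Sdf2l1* and *Hspb8*), beside 6.53% of all genes tested. Without a threshold on fold, an adjusted p of at most 0.05 was reached by 5 of the genes in the direction of higher expression and by 10 in that of lower expression, beside 13.6% and 15.7% of all genes tested. Of the 4 higher calls in the cytosolic class and the single one among the unfolded protein response genes, none was made once consecutive reaggregates were averaged, a setting that called 1.84% of all genes higher and 2.53% lower. In that setting 3 of the genes, *Asns*, *Chac1* and *Trib3*, were called lower. These 3 genes were called in all 13 alternative settings and in each of the 10 comparisons that left out 1 library, whereas every other call was lost in at least 4 of these 23 comparisons.

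The values of every reaggregate lay above those of every flat culture for 2 of the 37 genes, *Dnaja1* and *Ddit3*, beside 7.8% of all genes tested. They lay below those of every flat culture for 9 genes, beside 11.4% of all genes tested. The median log2 fold change was −0.24 over the 37 genes and 0.04 over all genes tested. Of the 37 genes 11 lay above 0 and 26 below, beside 8757 above and 8176 below among the 16933 genes tested. By class the median was −0.13 for the cytosolic heat shock genes, −0.85 for the mitochondrial chaperones, −0.29 for the ER folding and degradation genes, and −0.14 for the sensors, factors and targets. Because 0.5 was added to RPM before taking log2, the fold changes of genes near the floor are too small.

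**Figure D1:**
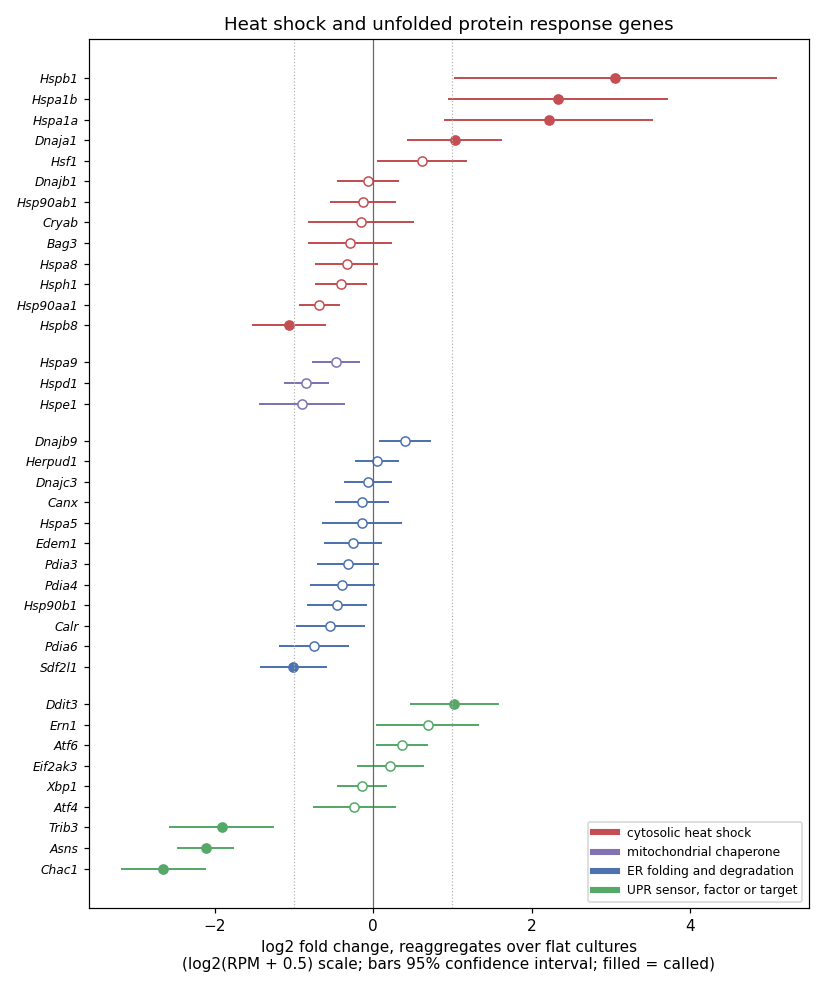
Log2 fold change of each of the 37 genes in 6 reaggregates over 4 flat cultures on the log2(RPM + 0.5) scale, by class, with bars for the 95% confidence interval and filled circles for called genes. The largest increase was that of *Hspb1* at 3.06 with an interval from 1.03 to 5.08, and the largest decrease that of *Chac1* at −2.65. The intervals take the 6 reaggregates as independent. With consecutive reaggregates averaged, that of *Hspb1* ran from 0.23 to 5.89.

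*Hspa1a* and *Hspa1b* encode the inducible cytosolic HSP70 and lie side by side, at chr17:35106144-35109069 and chr17:35093381-35096183 on the minus strand of NCBIM37. *Hspa1a* was at 2.96, 0.943, 5.31 and 0.334 RPM in flat cultures 1 to 4, and in reaggregates from 4.06 to 21.5 RPM with a median of 11.9 RPM. The lowest reaggregates were 3 and 4, at 4.06 and 4.42 RPM, which lay below flat culture 3, so the groups overlapped, and the value of flat culture 4 was below the 0.363 RPM that 3 reads gave there. The log2 fold change of *Hspa1a* was 2.22 ± 0.60 (SE, adjusted p = 0.0183 in limma), a 4.65-fold difference in which all 6 reaggregates exceeded the flat median. *Hspa1b* was at 5.33, 1.37, 8.44 and 0.654 RPM in flat cultures 1 to 4, and in reaggregates from 6.41 to 35.1 RPM with a median of 19.8 RPM. The order of the libraries was much as for its neighbour, with reaggregates 3 and 4 below flat culture 3 and the flat cultures of the de Bruijn lab lowest. Its log2 fold change was 2.33 ± 0.63 (SE, adjusted p = 0.0181 in limma), with 4 of 6 reaggregates above every flat culture. These genes cannot be treated as separate measurements. Of the 50-base stretches in coding transcripts of *Hspa1a*, 59.4% also occur in *Hspa1b*, reads that fit both had been divided by the authors, and the ratio of *Hspa1a* to *Hspa1b* was between 0.511 and 0.688 in all 10 libraries.

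The flat culture that served as reference changed the size of both HSP70 differences. Against flat cultures 1 and 3 only, a setting that called 3.7% of all genes higher and 6.17% lower, the differences shrank to 2.30-fold for *Hspa1a* (adjusted p = 0.209 in limma) and 2.28-fold for *Hspa1b* (adjusted p = 0.213 in limma). Against flat cultures 2 and 4 only, which called 15.2% of all genes higher and 10.5% lower, the log2 fold change was 3.23 for *Hspa1a* and 3.48 for *Hspa1b*, both called. Averaging of consecutive reaggregates gave an adjusted p in limma of 0.103 for *Hspa1a*, within a range from 0.00195 to 0.209 over all 23 alternatives, and 0.105 for *Hspa1b*, within a range from 0.00129 to 0.213. Without flat culture 4 neither gene was called, at log2 fold changes of 1.75 for *Hspa1a* and 1.84 for *Hspa1b*, and without flat culture 2 the call of *Hspa1b* was lost at 2.07.

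*Hspb1* encodes HSP27, a small heat shock protein that holds unfolded proteins in a refoldable state. It was at 30.5, 1.25, 51.4 and 1.11 RPM in flat cultures 1 to 4, and in reaggregates from 39.1 to 125 RPM with a median of 72.2 RPM. Flat cultures 2 and 4 stood far below all other libraries, and reaggregates 3 and 4 fell between flat cultures 1 and 3, so the groups overlapped. *Hspb1* thus had a log2 fold change of 3.06 ± 0.93 (SE, adjusted p = 0.0296 in limma), with 4 of 6 reaggregates above every flat culture. Against flat cultures 1 and 3 only it was 0.77 (adjusted p = 0.268 in limma), and against flat cultures 2 and 4 only it was 5.34. After averaging of consecutive reaggregates the adjusted p of *Hspb1* in limma was 0.162, and over all 23 alternatives it ranged from 1.14e-05 to 0.268. The call of *Hspb1* was also lost without flat culture 2 (log2 fold change 2.31), without flat culture 4 (2.27), without reaggregate 1 (2.96) and without reaggregate 2 (2.88). Of the 50-base stretches of *Hspb1*, 36.7% also occur in transcripts of *Gm9817*, so its level depends in part on how shared reads had been divided.

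*Dnaja1* encodes an HSP40 co-chaperone that delivers unfolded proteins to HSP70. It was at 130, 54.1, 132 and 54.9 RPM in flat cultures 1 to 4, and in reaggregates from 152 to 212 RPM with a median of 172 RPM. The groups did not overlap, and the flat cultures formed a higher pair without a lab in the label and a lower pair of the de Bruijn lab. For *Dnaja1* the log2 fold change was 1.03 ± 0.27 (SE, adjusted p = 0.0157 in limma), and it was 0.40 against flat cultures 1 and 3 only and 1.66 against flat cultures 2 and 4 only. Its adjusted p in limma after averaging of consecutive reaggregates was 0.127, and over all 23 alternatives it ranged from 2.17e-05 to 0.129. Leaving out flat culture 2 (log2 fold change 0.82), flat culture 4 (0.82) or reaggregate 6 (0.97) ended the call, as did quantile normalization (0.98).

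*Hspb8* encodes a small heat shock protein that works with the co-chaperone BAG3 in selective autophagy, and it was the only cytosolic member called lower. It was at 145, 91, 73.3 and 115 RPM in flat cultures 1 to 4, and in reaggregates from 39.1 to 62.7 RPM with a median of 48.4 RPM. Every reaggregate lay below every flat culture, and reaggregates 3 and 4 were again the lowest of their group. *Hspb8* had a log2 fold change of −1.07 ± 0.21 (SE, adjusted p = 0.00423 in limma), and it was −1.07 against flat cultures 1 and 3 only and −1.06 against flat cultures 2 and 4 only. With consecutive reaggregates averaged its adjusted p in limma was 0.0629, within a range from 0.00101 to 0.0688 over all 23 alternatives, and without flat culture 1 the log2 fold change was −0.90 and the call was lost. *Bag3*, its partner, spread from 73.8 to 214 RPM over flat cultures and from 92.9 to 115 RPM over reaggregates, with a log2 fold change of −0.29 (adjusted p = 0.352 in limma).

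*Hsf1*, the transcription factor of the heat shock response, was at 42.2, 31.4, 72.6 and 32.4 RPM in flat cultures 1 to 4, and in reaggregates from 48 to 84.1 RPM with a median of 65.8 RPM. Flat culture 3 lay among the reaggregates and the other flat cultures below them. For *Hsf1* the log2 fold change was 0.61 ± 0.26 (SE, adjusted p = 0.0879 in limma), which did not pass. It was 0.22 against flat cultures 1 and 3 only (adjusted p = 0.607 in limma), and 1.01 and called against flat cultures 2 and 4 only. These are levels of its mRNA, and the activity of HSF1, which is set by its trimerization and modification, was not measured.

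Among the 8 cytosolic members that were not called, 7 had a log2 fold change below 0. *Hsp90aa1*, which encodes the inducible HSP90 alpha, is named here after its values were seen because it alone of these 8 reached an adjusted p of at most 0.05. It was at 422, 397, 408 and 369 RPM in flat cultures 1 to 4, and in reaggregates from 225 to 264 RPM with a median of 252 RPM. Every reaggregate lay below every flat culture, and the spread within both groups was small. The log2 fold change of *Hsp90aa1* was −0.68 ± 0.11 (SE, adjusted p = 0.00181 in limma), less than the fold of 2 needed for a call, and with consecutive reaggregates averaged its adjusted p was 0.0642, within a range from 0.000625 to 0.0781 over all 23 alternatives. *Hsp90ab1*, the constitutive HSP90 beta, had a log2 fold change of −0.13 (adjusted p = 0.608 in limma) that turned to 0.03 against flat cultures 2 and 4 only. *Hsph1*, an HSP110 that exchanges the nucleotide of HSP70, had a log2 fold change of −0.41 with an adjusted p of 0.0504 in limma. The constitutive HSC70 gene *Hspa8* gave −0.34 (adjusted p = 0.163 in limma), the HSP40 gene *Dnajb1* gave −0.07 (adjusted p = 0.791 in limma), and *Cryab*, which encodes alpha B crystallin, gave −0.16 (adjusted p = 0.711 in limma).

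**Figure D2:**
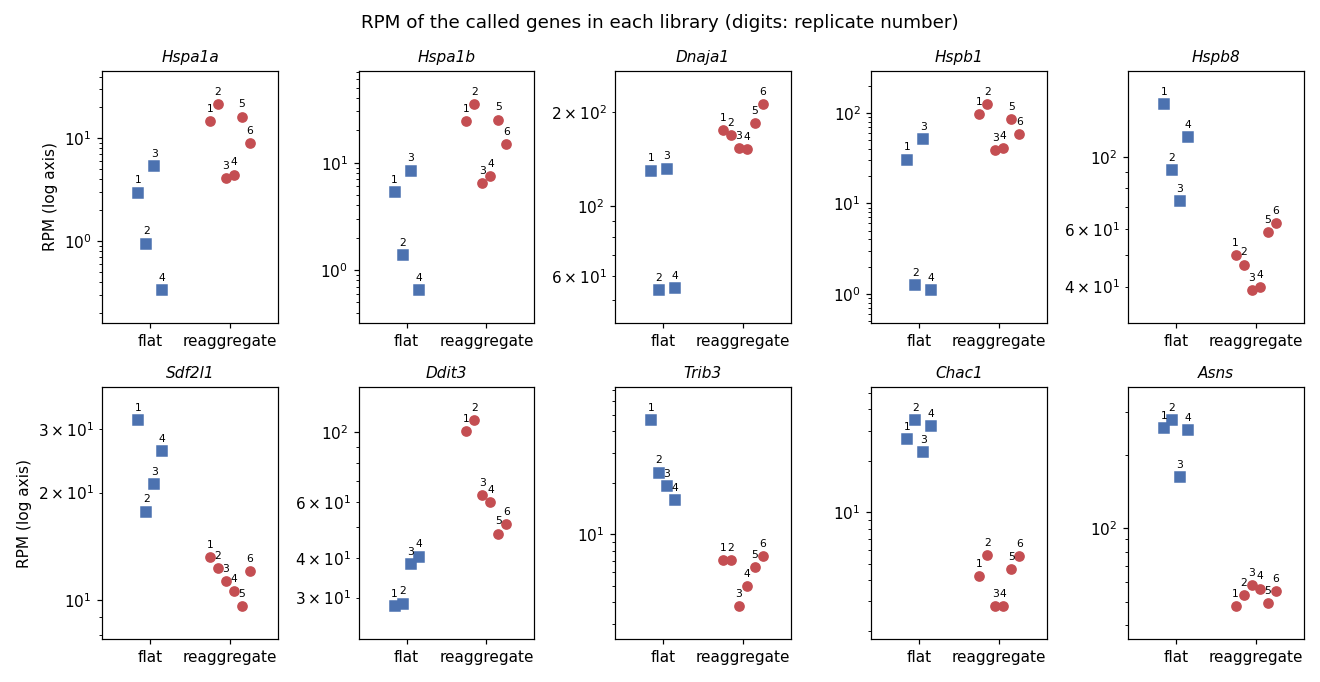
RPM of the 10 called genes in each library on a logarithmic axis, with squares for the 4 flat cultures, circles for the 6 reaggregates and the replicate number beside each symbol. For *Hspa1a*, *Hspa1b*, *Hspb1* and *Dnaja1* flat cultures 2 and 4 sit below flat cultures 1 and 3, and for *Asns*, *Chac1* and *Trib3* every reaggregate sits below every flat culture.

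The mitochondrial chaperones encode HSP60 (*Hspd1*), its co-chaperonin HSP10 (*Hspe1*) and the mitochondrial HSP70 (*Hspa9*). None was called, and all 3 were below the fold of 2 but reached an adjusted p of at most 0.05 in the direction of lower expression. *Hspe1*, the largest difference of the class, was at 164, 112, 66.1 and 173 RPM in flat cultures 1 to 4, and in reaggregates from 58 to 78.1 RPM with a median of 62.5 RPM. Flat culture 3 lay within the range of the reaggregates and the other flat cultures above all of them. The log2 fold change of *Hspe1* was −0.90 ± 0.24 (SE, adjusted p = 0.0178 in limma), and without flat culture 3 it was −1.19 and called. Against flat cultures 1 and 3 only it was −0.69 (adjusted p = 0.128 in limma), and against flat cultures 2 and 4 only it was −1.11 and called. *Hspd1* was at 218, 292, 237 and 247 RPM in flat cultures 1 to 4, and in reaggregates from 124 to 150 RPM with a median of 139 RPM. Every reaggregate lay below every flat culture, with a log2 fold change of −0.85 ± 0.12 (SE, adjusted p = 0.000894 in limma). *Hspa9* was at 433, 491, 424 and 352 RPM in flat cultures 1 to 4, and in reaggregates from 269 to 333 RPM with a median of 309 RPM. Here too the groups did not overlap, with a log2 fold change of −0.47 ± 0.13 (SE, adjusted p = 0.0229 in limma). When consecutive reaggregates were averaged the adjusted p in limma was 0.0401 for *Hspd1*, within a range from 0.000228 to 0.0541 over all 23 alternatives, and 0.135 for *Hspe1*, within a range from 0.000454 to 0.152. For *Hspa9* it was 0.175, within a range from 0.0176 to 0.210, so only *Hspd1* kept an adjusted p of at most 0.05 in this setting. *Hspd1* and *Hspa9* are named in full after their values were seen.

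*Hspa5* encodes BiP, the HSP70 of the ER lumen and the usual marker of the unfolded protein response. It was at 1570, 671, 1060 and 787 RPM in flat cultures 1 to 4, and in reaggregates from 747 to 966 RPM with a median of 910 RPM. The reaggregates lay inside the range of the flat cultures, whose spread was the larger, with flat culture 1 highest and flat cultures 2 and 4 of the de Bruijn lab lowest. For *Hspa5* this gave a log2 fold change of −0.14 ± 0.22 (SE, 95% confidence interval −0.64 to 0.35, adjusted p = 0.640 in limma). It was −0.56 against flat cultures 1 and 3 only and 0.27 against flat cultures 2 and 4 only, and neither passed.

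Among the ER members *Sdf2l1*, a luminal partner of BiP, was the only one called. It was at 31.8, 17.7, 21.1 and 26.1 RPM in flat cultures 1 to 4, and in reaggregates from 9.65 to 13.2 RPM with a median of 11.7 RPM. Every reaggregate lay below every flat culture. Its log2 fold change was −1.01 ± 0.19 (SE, adjusted p = 0.00334 in limma), just past the fold of 2, so that small shifts ended the call. It was −0.87 without flat culture 1, −0.96 without flat culture 4, −0.99 without reaggregate 4 and −0.96 without reaggregate 5, in each case with an adjusted p of at most 0.0135 in limma. Averaged consecutive reaggregates gave *Sdf2l1* an adjusted p in limma of 0.0639, and over all 23 alternatives it ranged from 0.00212 to 0.0727.

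The 11 other ER members had log2 fold changes from −0.75 for *Pdia6* to 0.40 for *Dnajb9*, 9 of them below 0. *Pdia6*, a disulfide isomerase named after its values were seen, reached an adjusted p of 0.0162 in limma, and its reaggregates, from 162 to 256 RPM, all lay below its flat cultures, from 278 to 491 RPM. With consecutive reaggregates averaged the adjusted p of *Pdia6* in limma was 0.119, within a range from 0.0137 to 0.123 over all 23 alternatives. The luminal HSP90 gene *Hsp90b1* had a log2 fold change of −0.46 (adjusted p = 0.0580 in limma). The lectin chaperone genes *Calr* and *Canx* gave −0.54 (adjusted p = 0.0547 in limma) and −0.14 (adjusted p = 0.486 in limma). The disulfide isomerase genes *Pdia3* and *Pdia4* gave −0.32 and −0.39, with adjusted p of 0.170 and 0.123 in limma. Against flat cultures 1 and 3 only *Pdia4* gave −0.02 (adjusted p = 0.9065 in limma). Against flat cultures 2 and 4 only it gave −0.76 (adjusted p = 0.00127 in limma), less than a 2-fold difference. *Dnajb9*, a co-chaperone of BiP and a target of XBP1, gave 0.40 (adjusted p = 0.0555 in limma), with 5 of 6 reaggregates above every flat culture. *Herpud1* and *Edem1*, which serve the degradation of ER proteins, gave 0.05 and −0.25, and *Dnajc3*, an inhibitor of PERK, gave −0.06, none of them past the threshold.

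The sensors of the unfolded protein response had log2 fold changes above 0 without a call. *Ern1*, which encodes IRE1 alpha, ranged from 41.9 to 97.5 RPM in flat cultures and from 58.1 to 117 RPM in reaggregates, with a log2 fold change of 0.69 (adjusted p = 0.0934 in limma). Reaggregates 5 and 6, at 58.6 and 58.1 RPM, lay well below the other 4. *Atf6* gave 0.36 (adjusted p = 0.0743 in limma) and *Eif2ak3*, which encodes PERK, gave 0.21 (adjusted p = 0.398 in limma). *Xbp1*, the factor of the IRE1 branch, was at 126, 118, 118 and 94.9 RPM in flat cultures 1 to 4, and in reaggregates from 89.7 to 127 RPM with a median of 97.5 RPM. The groups covered nearly the same range. For *Xbp1* the log2 fold change was −0.14 ± 0.14 (SE, adjusted p = 0.446 in limma), and the unconventional splicing of *Xbp1* mRNA, by which IRE1 acts, cannot be read from values per gene.

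*Atf4*, the factor of the PERK branch, was at 493, 180, 380 and 282 RPM in flat cultures 1 to 4, and in reaggregates from 238 to 284 RPM with a median of 274 RPM. The flat cultures spread on both sides of the reaggregates, with flat culture 1 highest and flat culture 2 lowest. *Atf4* had a log2 fold change of −0.24 ± 0.23 (SE, adjusted p = 0.450 in limma), which did not pass. It was −0.71 against flat cultures 1 and 3 only, with an adjusted p of 0.0126 in limma but less than a 2-fold difference, and 0.23 against flat cultures 2 and 4 only, with an adjusted p of 0.287, and over all 23 alternatives the adjusted p ranged from 0.0126 to 0.955. ATF4 is regulated mainly at translation, so its mRNA level is an incomplete measure of it.

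*Ddit3* encodes CHOP, a transcription factor downstream of ATF4. It was at 28.2, 28.7, 38.3 and 40.4 RPM in flat cultures 1 to 4, and in reaggregates from 47.8 to 109 RPM with a median of 61.8 RPM. All reaggregates lay above all flat cultures, with reaggregates 1 and 2 highest, at 101 and 109 RPM, and reaggregates 5 and 6 lowest. *Ddit3* had a log2 fold change of 1.02 ± 0.25 (SE, adjusted p = 0.0119 in limma). The choice of flat cultures moved it little, but it was not called against flat cultures 1 and 3 only (1.05, adjusted p = 0.0612 in limma), nor against flat cultures 2 and 4 only, where the fold fell just short of 2 (adjusted p = 0.0289 in limma). The call was also lost without flat culture 1 (0.94), flat culture 2 (0.95), reaggregate 1 (0.91) or reaggregate 2 (0.89), each below the fold of 2, and under quantile normalization (0.97). In the setting with averaged reaggregates its adjusted p in limma was 0.0765, and over all 23 alternatives it ranged from 0.00698 to 0.0817.

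*Asns*, *Chac1* and *Trib3*, which like *Ddit3* lie downstream of ATF4, were called lower. *Asns*, which encodes asparagine synthetase, was at 258, 277, 162 and 252 RPM in flat cultures 1 to 4, and in reaggregates from 48 to 58.5 RPM with a median of 54.2 RPM. The reaggregates formed a narrow group far below all flat cultures, of which flat culture 3 was the lowest. The log2 fold change of *Asns* was −2.11 ± 0.16 (SE, adjusted p = 3.2e-05 in limma), and over the 23 alternatives it ranged from −2.30 to −1.93. *Chac1*, which encodes an enzyme that degrades glutathione, was at 26.9, 34.5, 22.5 and 32.1 RPM in flat cultures 1 to 4, and in reaggregates from 2.82 to 5.58 RPM with a median of 4.45 RPM. Again the groups were far apart, and reaggregates 3 and 4 were the lowest. The log2 fold change of *Chac1* was −2.65 ± 0.24 (SE, adjusted p = 7.2e-05 in limma), and over the 23 alternatives it ranged from −2.87 to −2.44. *Trib3*, which encodes a pseudokinase that restrains ATF4 and CHOP, was at 46.4, 23, 19.2 and 15.9 RPM in flat cultures 1 to 4, and in reaggregates from 3.81 to 7.44 RPM with a median of 6.73 RPM. Flat culture 1 stood above the other flat cultures, and all of these stood above the reaggregates. The log2 fold change of *Trib3* was −1.91 ± 0.30 (SE, adjusted p = 0.00126 in limma), and over the 23 alternatives it ranged from −2.23 to −1.60. Averaging left the adjusted p in limma at 0.0087 for *Asns* and for *Chac1*, and at 0.0329 for *Trib3*. Over all 23 alternatives it ranged from 9.45e-07 to 0.0091 for *Asns*, from 5.45e-05 to 0.0091 for *Chac1* and from 0.000991 to 0.0378 for *Trib3*.

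Summed over a class, RPM gives the share of a library's reads that falls on its genes, and it follows the most abundant members. The cytosolic members summed to 5995, 4790, 4870 and 4996 RPM in flat cultures 1 to 4, and in reaggregates from 4226 to 4810 RPM with a median of 4569 RPM. These ranges touched, and *Hsp90ab1* alone supplied between 51.4% and 59.1% of the sum. The mitochondrial members summed to 815, 895, 727 and 772 RPM in flat cultures 1 to 4, and in reaggregates from 452 to 541 RPM with a median of 510 RPM. No reaggregate came near a flat culture in this class, and the ratio of means, reaggregates over flat cultures, was 0.633. The ER members summed to 6744, 5571, 5313 and 4955 RPM in flat cultures 1 to 4, and in reaggregates from 3825 to 4965 RPM with a median of 4477 RPM. Only reaggregate 6 reached the lowest flat culture. The ratio of means was 0.778 for the ER members, 0.878 for the cytosolic members and 0.766 for the sensors, factors and targets. The sensors, factors and targets summed to 1107, 811, 938 and 832 RPM in flat cultures 1 to 4, and in reaggregates from 645 to 775 RPM with a median of 703 RPM, so that all reaggregates were lower. Most of this difference lay in *Asns*, and without it the sums were 849, 534, 776 and 580 RPM in flat cultures 1 to 4 and from 596 to 722 RPM in reaggregates, which overlapped, with a ratio of means of 0.953. No test was run on these sums.

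**Figure D3:**
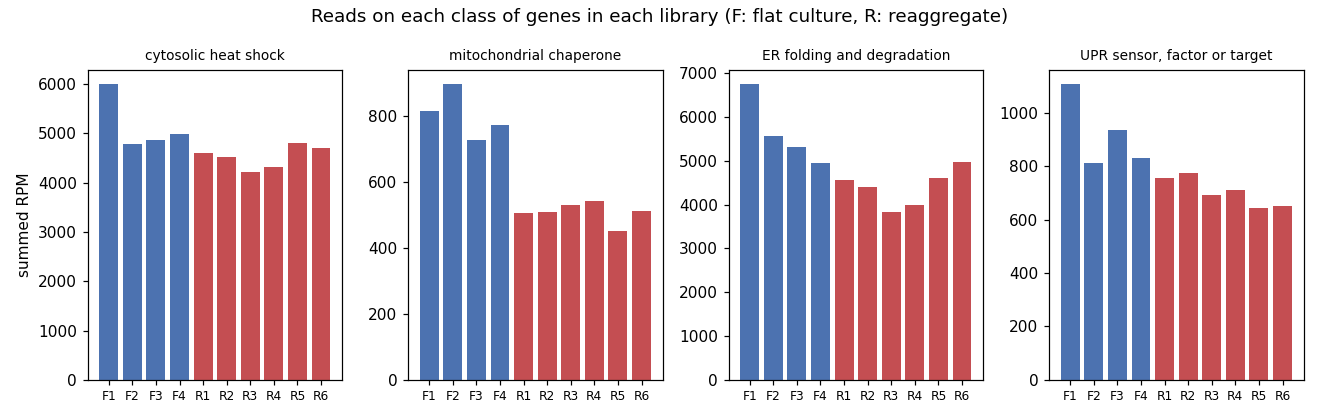
Summed RPM of each class of genes in each library, with bars from 0 for flat cultures (F1 to F4) and reaggregates (R1 to R6). The mitochondrial chaperones sum to between 452 and 541 RPM in reaggregates and between 727 and 895 RPM in flat cultures.

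IL-3 was compared within the reaggregates, 3 with and 3 without it. None of the 37 genes was called, beside 0% of all genes tested. At an unadjusted p of at most 0.05 in limma there were 0 of the 37 genes and 68 of the 16933 tested. The log2 differences of the 37 genes, with minus without IL-3, ran from −0.17 for *Hsf1* to 0.19 for *Chac1* with a median of 0.04. With consecutive reaggregates as a block, no gene was called either, and an unadjusted p of at most 0.05 was reached by 564 genes, of which 1 was a member, *Dnajc3* (log2 difference 0.16, adjusted p = 0.982 in limma, named after its values were seen).

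Within the flat cultures, those of the de Bruijn lab were compared with those without a lab in the label, 2 against 2. No member was called higher, beside 1.82% of all genes tested, and 2 were called lower, *Hspb1* and *Hspa1b*, beside 3.87% of all genes tested. The log2 difference of *Hspb1* was −4.58 ± 0.41 (SE, adjusted p = 0.00809 in limma), from a mean of 41 RPM in flat cultures 1 and 3 to 1.18 RPM in flat cultures 2 and 4. That of *Hspa1b* was −2.30 ± 0.43 (SE, adjusted p = 0.0471 in limma), from a mean of 6.88 to 1.01 RPM. *Dnaja1* followed with −1.26 (adjusted p = 0.0507 in limma) and *Hspa1a* with −2.03 (adjusted p = 0.0676 in limma), both short of the threshold. The cytosolic genes that were called higher in reaggregates were thus the 4 of the 37 genes with the lowest p between the flat cultures, which both comparisons share. Both calls were lost when any 1 flat culture was left out, a setting in which no gene at all was called and the lone library of its source was taken to vary like the other. The median log2 difference of all genes was −0.17 in this comparison and 0.05 after quantile normalization, which called 646 genes higher and 799 lower in place of 309 and 656. Which stock of OP9 the reaggregates came from is not stated, so source and culture form cannot be fully told apart.

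Other genes of the same pathways, listed by symbol, were described by counts and medians beside the 7.32% and 6.53% of all genes called and their median of 0.04. Of 33 other cytosolic chaperones and co-chaperones tested, 0 were called higher and 1 lower, with a median log2 fold change of −0.12. The gene called was *Hspa4l*, an HSP110 relative, at −1.47 ± 0.35 (SE, adjusted p = 0.0101 in limma). Of 13 subunits of the cytosolic chaperonin and prefoldin, which fold actin and tubulin, 4 were called lower and none higher, with a median of −0.76. The largest of these were *Vbp1* at −1.29, *Cct6a* at a fold of 0.437 and *Tcp1* at −1.03, with adjusted p of 0.00368, 0.00414 and 0.00201 in limma. Of 11 other mitochondrial chaperones and proteases, 2 were called lower and none higher, with a median of −0.26. These were *Grpel1*, the nucleotide exchange factor of mitochondrial HSP70, at −1.31 ± 0.25 (SE, adjusted p = 0.00383 in limma), and the protease gene *Htra2* at −1.07 ± 0.14 (SE, adjusted p = 0.000423 in limma). Of 34 other ER folding and degradation genes tested, none was called in either direction, with a median of 0.02. At an adjusted p of at most 0.05 in limma and any fold, beside 13.6% of all genes higher and 15.7% lower, there were 3 higher and 10 lower among the cytosolic chaperones, 0 and 9 among the chaperonin and prefoldin subunits, 0 and 3 among the mitochondrial genes, and 2 and 3 among the ER genes. With consecutive reaggregates averaged, *Htra2* was the only gene of these 4 lists that was called (adjusted p = 0.0212 in limma). At an unadjusted p of at most 0.05 in limma there were then 7 lower and 2 higher among the cytosolic chaperones, 8 lower and 0 higher among the chaperonin and prefoldin subunits, 3 lower and 0 higher among the mitochondrial genes, and 2 in each direction among the ER genes, beside 14.1% of all genes lower and 12.9% higher at that p in this setting.

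Of 35 other genes of the integrated stress response, 4 were called higher and 13 lower, with a median of −0.59. The 3 that fell furthest serve amino acid and one-carbon metabolism. *Cth*, for cysteine synthesis, had a log2 fold change of −2.63 ± 0.31 (SE, adjusted p = 0.000273 in limma), and *Psat1*, for serine synthesis, had −2.63 ± 0.24 (SE, adjusted p = 7.95e-05 in limma). *Cth* was at 5.76, 8.59, 3.23 and 10.8 RPM in flat cultures 1 to 4. In reaggregates it was between 0.385 and 1.09 RPM, near the floor, so its fold change is too small. *Psat1* was at 547, 232, 218 and 364 RPM in flat cultures 1 to 4 and between 44.7 and 66.5 RPM in reaggregates. *Mthfd2*, of mitochondrial folate metabolism, had −2.41 ± 0.25 (SE, adjusted p = 0.000132 in limma). The highest calls were those of the transcription factor genes *Atf3*, *Nupr1* and *Cebpb*. *Atf3* was at 3.8, 1.67, 31.5 and 1.46 RPM in flat cultures 1 to 4 and between 65.9 and 98.9 RPM in reaggregates, and its log2 fold change was 4.08 ± 0.63 (SE, adjusted p = 0.00124 in limma). *Nupr1* gave 1.56 ± 0.20 (SE, adjusted p = 0.00038 in limma) and *Cebpb* 1.14 ± 0.23 (SE, adjusted p = 0.00488 in limma). With consecutive reaggregates averaged, 2 genes of this list were called higher, *Atf3* and *Nupr1*, and 9 lower, among them *Cth*, *Psat1* and *Mthfd2*, beside 1.84% and 2.53% of all genes, while *Cebpb* had an adjusted p of 0.0585 in limma.

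Immediate early genes, which respond within minutes to serum, handling or enzymatic dissociation, were listed beside the stress genes because reaggregates had been dissociated before extraction. Of 19 tested, 7 were called higher and 1 lower, with a median of 0.88, beside 7.32% and 6.53% of all genes and their median of 0.04. *Fosb* was at 2.76, 19.6, 284 and 12.4 RPM in flat cultures 1 to 4 and between 223 and 572 RPM in reaggregates, with a log2 fold change of 4.18 ± 0.92 (SE, adjusted p = 0.00729 in limma). *Nr4a1* gave 3.98 ± 0.60 (SE, adjusted p = 0.0011 in limma), *Egr3* gave 3.36 ± 0.35 (SE, adjusted p = 0.000138 in limma), and *Fosl1* was the gene called lower, at −1.75 ± 0.22 (SE, adjusted p = 0.000406 in limma). Among the flat cultures, flat culture 3 had the highest *Fosb*, *Nr4a1* and *Atf3*. Of the 37 genes it had the highest flat value of 7, *Hspa1a*, *Hspa1b*, *Dnaja1*, *Hspb1*, *Cryab*, *Hsf1* and *Ern1*. It had the lowest flat value of 8, *Hspa8*, *Dnajb1*, *Hspb8*, *Hspe1*, *Calr*, *Pdia3*, *Chac1* and *Asns*. Flat cultures 1, 2 and 4 had the highest of 14, 11 and 5 and the lowest of 7, 8 and 14. With consecutive reaggregates averaged, 2 of the immediate early genes were called higher, *Nr4a1* and *Egr3*, and *Fosl1* lower, beside 1.84% and 2.53% of all genes, while *Fosb* had an adjusted p of 0.0839 in limma. The part of dissociation in the stress gene values was not tested. Of the cell type markers, 6 of 11 stromal markers tested were called higher, led by *Col3a1* at 4.11, *Col1a1* at 1.93 and *Col1a2* at 1.83, and 1 lower, *Kitl* at −1.01. Of these 11 markers 6 lay above 0 and 5 below. In the same fit 7.32% of all genes were called higher and 6.53% lower. Of 6 adipocyte markers 3 were called lower, *Fabp4* at −2.37, *Pparg* at −1.67 and *Cebpa* at −1.36. These differences lay mostly in flat cultures 2 and 4, with *Fabp4* at 31.3, 435, 47.2 and 711 RPM, *Pparg* at 49.4, 395, 58.1 and 295 RPM and *Cebpa* at 34.9, 188, 64.3 and 119 RPM in flat cultures 1 to 4. In reaggregates *Fabp4* was between 19.1 and 44.4 RPM, *Pparg* between 36 and 46.7 RPM and *Cebpa* between 26.7 and 40.8 RPM. None of the markers named here was called with consecutive reaggregates averaged, a setting in which 2 of the 11 stromal markers were called higher, beside 1.84% of all genes, and 0 adipocyte markers were called in limma, with 3 adipocyte markers lower at an unadjusted p of at most 0.05, beside the same 14.1% of all genes. No call was made among the 3 blood, 1 endothelial and 1 epithelial markers that passed the filter.

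Promoter sequences, from 250 bases before to 50 bases after the transcription start, were given by RefSeq on GRCm38.p6 for 30 of the 37 genes, and were searched on both strands. The ATF4 motif, the C/EBP-ATF element TGATGNAAN, was found in promoters of 4 genes, *Asns*, *Chac1*, *Trib3* and *Herpud1*, and in 3.95% of all 32851 promoters in the table. Of these 4, *Herpud1* was not called, at a log2 fold change of 0.05. *Ddit3*, also downstream of ATF4 but called higher, had 0 matches to this motif in its window. The ER stress response element, CCAAT and CCACG with 9 bases between them, was found in 6, *Hspa5*, *Hsp90b1*, *Calr*, *Canx*, *Pdia6* and *Dnajc3*, and in 0.119% of all promoters. None of these 6 was called. The CCACG unit alone, which is contained in every full element, was found in 22 of the genes and in 32.8% of all promoters. For each motif a gene was counted if any of its windows held a match, and some genes have several windows. The percentages are shares of promoters and not of genes. The heat shock element, taken as 3 alternating units GAANNTTCNNGAA, was found in *Hspd1*, *Hspe1* and *Hsph1* and in 0.603% of all promoters. A match describes letters and not binding. The absence of a heat shock element in *Hspa1a*, *Hspa1b* or *Hspb1*, or of the ATF4 motif in *Ddit3*, says only that these letters are not in this window. The promoter windows of *Hspa1a* and *Hspa1b* were identical at 296 of 300 positions.

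The promoters of the 3 genes that were called lower in every setting are shown because each holds the ATF4 motif, which is in capitals. They are *Asns* at chr6:7693160-7693459 on the minus strand, *Chac1* at chr2:119350992-119351291 on the plus strand and *Trib3* at chr2:152344011-152344310 on the minus strand of GRCm38.p6. In *Chac1* and *Trib3* the motif reads on the opposite strand.
Asns: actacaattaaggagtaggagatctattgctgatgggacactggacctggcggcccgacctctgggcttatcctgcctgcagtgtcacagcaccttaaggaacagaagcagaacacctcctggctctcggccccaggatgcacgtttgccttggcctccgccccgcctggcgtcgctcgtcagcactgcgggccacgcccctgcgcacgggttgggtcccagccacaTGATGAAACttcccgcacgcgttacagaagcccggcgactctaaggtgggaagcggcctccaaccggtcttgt
Chac1: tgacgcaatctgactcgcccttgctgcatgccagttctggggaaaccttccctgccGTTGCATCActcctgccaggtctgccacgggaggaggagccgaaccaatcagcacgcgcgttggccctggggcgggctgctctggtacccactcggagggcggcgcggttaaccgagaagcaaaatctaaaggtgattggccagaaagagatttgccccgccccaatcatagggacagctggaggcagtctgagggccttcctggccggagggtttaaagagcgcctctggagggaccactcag
Trib3: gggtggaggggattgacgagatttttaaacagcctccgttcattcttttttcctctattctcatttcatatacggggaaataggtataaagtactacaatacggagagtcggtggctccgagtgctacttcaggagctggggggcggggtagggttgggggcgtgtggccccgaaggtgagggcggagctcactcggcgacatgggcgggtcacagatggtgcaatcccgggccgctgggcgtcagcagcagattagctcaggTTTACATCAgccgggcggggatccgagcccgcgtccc

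*Hspd1* and *Hspe1* lie head to head, and 1 of the 2 starts listed for *Hspd1* and that of *Hspe1* lie within the same stretch, which is shown from the side of *Hspe1*, at chr1:55087898-55088197 on the plus strand of GRCm38.p6, with both overlapping heat shock elements in capitals. The window of the other *Hspd1* start holds 0 heat shock elements. Neither gene was called, with log2 fold changes of −0.85 for *Hspd1* and −0.90 for *Hspe1*, whose groups overlapped, and 2.36% of the 50-base stretches of *Hspd1* transcripts are shared with *Hspe1*.
Hspe1: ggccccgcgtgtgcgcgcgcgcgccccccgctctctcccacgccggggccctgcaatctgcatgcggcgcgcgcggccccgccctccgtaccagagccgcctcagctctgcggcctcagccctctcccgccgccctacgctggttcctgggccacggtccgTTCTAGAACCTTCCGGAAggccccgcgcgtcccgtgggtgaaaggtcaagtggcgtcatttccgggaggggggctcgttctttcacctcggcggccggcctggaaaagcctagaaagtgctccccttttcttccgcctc

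The other genes share few or no stretches with coding transcripts of other genes. The share was at most 9.46%, in *Dnaja1*, all of it with *Smu1*. It was 2.14% in *Ddit3*, all with *Mars*, and none was shared in *Asns*, *Chac1*, *Trib3*, *Sdf2l1* or *Hspb8*. Transcripts not annotated as coding were not searched.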

How the data were processed

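The authors aligned 50-base reads to NCBI37/mm9 with TopHat 1.2.0 and Bowtie, counted them on Ensembl genes in GeneProf, dividing reads that mapped to several genes in proportion to the unique reads of each, and deposited RPM values per gene and library. The table also holds 2 columns of the authors' own DESeq comparison of reaggregates with flat cultures, a log2 fold change and an adjusted p, which were not used here. Every column of per-library values was matched, with 0 unmatched, and groups, IL-3 and cell source came from the sample labels. Between 68.3% and 71.4% of the values from 1 to 20 reads were whole multiples of 1 read within 0.1 read, so no test on counts was run.

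Genes above 0.5 RPM in at least 1 library were compared as log2(RPM + 0.5) with limma 3.58.1 in R 4.3.3 (linear model without covariates, empirical Bayes with a mean-variance trend, two-sided), with Benjamini-Hochberg adjustment over all genes tested. The fits were tested on simulated data in which each library varied independently. For reaggregates against flat cultures the simulation held neither the likeness of consecutive reaggregates nor the split of flat cultures by source. Tables and figures were made with Python 3.11.15, pandas 2.3.3, numpy 2.4.6 and matplotlib 3.10.9. Gene coordinates came from GENCODE M1 on NCBIM37, and shared stretches of 50 bases from its coding transcripts. Alternatives were pseudocounts of 0.1 and 1, no filter or a mean of at least 5 RPM, quantile normalization, median-ratio scaling, no variance trend, averaged consecutive reaggregates, the replicate block, subsets by IL-3 or cell source, and leaving out each library.

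Each flat culture, and the range and median of the reaggregates, are given for called genes, for the largest difference of a class without a call, and for *Hspa1a*, *Hspa1b*, *Hspa5*, *Hsf1*, *Xbp1*, *Atf4* and *Ddit3*. From each other list at most 3 called genes per direction are named by size. The genes and lists were chosen with earlier results of these data known. *Pfdn6*, *Stc2* and *Hbb-b1* of the lists were not used here.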

Additional observations from a re-analysis of the deposited data

Results flagged for a closer look

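In 74 groups of values, the 37 genes in the 6 reaggregates and in the 4 flat cultures, no library stood apart from the others of its group by Dixon's test at the 95% level on the log2(RPM + 0.5) scale, with 0 such libraries found. The flat cultures of *Hspb1* formed 2 pairs, which this test does not detect.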

How the results depend on the processing

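The number of genes called higher in reaggregates, 5, fell to 2 without a filter on low values, to 3 after quantile normalization, and to 0 with consecutive reaggregates averaged, with reaggregates without IL-3 only, with reaggregates with IL-3 only, and against flat cultures 1 and 3 only. The share of all genes called higher, 7.32%, was 3.3%, 7.16%, 1.84%, 2.04%, 1.64% and 3.7% in these settings in the same order. The count ranged from 1 to 5 when 1 library was left out, and was 1 without flat culture 2 or flat culture 4 and 3 without reaggregate 1 or reaggregate 2, where 5.71%, 4.52%, 5.75% and 5.66% of all genes were called higher. The number called lower, 5, was 3 with averaged reaggregates and in the subsets without and with IL-3, beside 2.53%, 2.8% and 2.13% of all genes in place of 6.53%. It was 6 against flat cultures 1 and 3 only, where *Pdia6* was gained, beside 6.17% of all genes. With a pseudocount of 1 it was 4, without *Sdf2l1*, beside 5.72% of all genes. It ranged from 3 to 6 when 1 library was left out, with 3 without flat culture 1 beside 6.79% of all genes. At an adjusted p of at most 0.05 and any fold, the number higher, 5, became 3 without a filter (6.07% of all genes), 0 with averaged reaggregates, with either IL-3 subset and against flat cultures 1 and 3 only (1.94%, 2.13%, 1.69% and 6.6%), and 8 against flat cultures 2 and 4 only, where 25.3% of all genes were higher in place of 13.6%. It ranged from 1 to 8 when 1 library was left out, with 3, 8 and 1 without flat cultures 2, 3 and 4, beside 10.3%, 22.1% and 7.49% of all genes. The number lower, 10, became 4 with averaged reaggregates and without IL-3 and 3 with IL-3 only, beside 2.68%, 3% and 2.2% of all genes in place of 15.7%, with a range from 9 to 13 when 1 library was left out. These subsets hold fewer libraries, and other causes were not tested.

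Within the flat cultures, the 2 calls by source, *Hspb1* and *Hspa1b*, were both lost without a filter, where *Dnaja1* was the only one of the 37 genes called, beside 0.208% of all genes higher and 0.409% lower, and the count was 0 when 1 flat culture was left out, the lowest and highest value of that range being 0. The count of 0 for IL-3 was the same in each alternative run, and unadjusted p of at most 0.05 was reached by between 65 and 564 of all genes in limma. Under median-ratio scaling the ratios of class sums were 0.873 in place of 0.878 (cytosolic), 0.774 in place of 0.778 (ER) and 0.76 in place of 0.766 (sensors, factors and targets), and the mitochondrial means were 501 RPM in reaggregates and 803 RPM in flat cultures in place of 508 and 802 RPM.

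*Asns*, *Chac1* and *Trib3* kept their direction and call in every alternative. Over all alternatives, 776 of 851 log2 fold changes of the 37 genes kept both their direction and whether they were called, 55 kept the direction but lost the call, 5 gained a call, and 15 changed sign, in 8 genes that were not called. Against flat cultures 2 and 4 only they were 0.03 for *Hsp90ab1*, 0.09 for *Cryab*, 0.27 for *Hspa5*, 0.13 for *Dnajc3* and 0.23 for *Atf4*, and against flat cultures 1 and 3 only 0.09 for *Dnajb1*, 0.13 for *Bag3* and −0.07 for *Herpud1*. *Herpud1* gave −0.02 after quantile normalization and −0.01 without flat culture 2, and *Dnajc3* gave 0.02 with IL-3 only and 0.01 without flat culture 1. The other values were 0.05 for *Dnajb1* without flat culture 4, 0.03 for *Cryab* without reaggregate 4 and 0.09 for *Hspa5* without flat culture 1. With 1 library left out, *Dnajb1* ranged from −0.18 to 0.05, *Cryab* from −0.33 to 0.03, *Hspa5* from −0.32 to 0.09, *Dnajc3* from −0.14 to 0.01 and *Herpud1* from −0.01 to 0.12. The cause was not tested.

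Reaggregates and flat cultures share the numbers 1 to 4, but deviations of same-numbered libraries from their group means correlated at −0.04, −0.21, 0.07 and 0.16 across genes, and not every library correlated best with its own number, so the numbers were not taken as pairs. With a replicate block 5 genes were called higher, with *Ern1* in place of *Dnaja1*, and 4 lower, without *Sdf2l1*, beside 11.1% and 6.82% of all genes, and at any fold 6 and 8 had an adjusted p of at most 0.05, beside 14.3% and 10.4% of all genes. At this depth, values below 0.318 to 0.408 RPM, depending on the library, rest on fewer than 3 reads.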
